A study of Mus musculus with 23 samples.

Results

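The members are 3661 of the 13791 genomic regions listed for retinoic acid receptor (RAR) and retinoid X receptor (RXR) binding in F9, an established line of mouse embryonal carcinoma cells. They were chosen by spacing alone. Regions were sorted by midpoint on each chromosome, consecutive regions with midpoints 10 kb or less apart were chained, and all regions in chains of 3 or more were taken. This gave 981 chains on 20 chromosomes, which hold 26.5% of the list. Of the 10130 regions outside such chains, 3568 formed 1784 pairs and 6562 stood alone, with no other midpoint within 10 kb of theirs. Positions are in build mm9.

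Chromatin immunoprecipitation (ChIP) was done once each with an antibody to all RARs and with an antibody to all RXRs, before treatment (0 h) and after 2, 24 and 48 h of all-trans retinoic acid (RA) at 1e-07 M, and 1 library of total chromatin was made at 0 h. Chromatin was sheared to fragments of 200 to 400 bp and read as single ends of 36 bp. Another 14 mRNA libraries were made, with 4 at 0 h and 2 each after 6, 12, 24 and 48 h of RA. The solvent dimethyl sulfoxide (DMSO) at 0.001% had 1 library each at 24 and 48 h. The regions come as 1 list with no score, receptor, sample or time beside them, so a chain cannot be tied to a receptor or a time here. It has no replicates, and nothing below is a test: counts and medians describe this list.

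RARs and RXRs are nuclear receptors that bind DNA as heterodimers, at pairs of hexamer half-sites found in the regulatory regions of retinoid target genes. In embryonal carcinoma cells RA starts differentiation toward extraembryonic endoderm. Several binding sites of a factor near each other are a known feature of enhancer-rich loci. A summit-centred peak list can also place several entries on 1 broad or uneven peak. Whether this list is summit-centred is not stated, and which kind of entry a chain holds was not tested. Neither genes nor sequences are given for the regions, because no mm9 genome or annotation was used here.

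All 13791 regions were 500 bp wide, inside and outside chains, so width could not separate them and no member stood out as wide or narrow. The list held 0 exact duplicates, and the closest midpoints lay 102 bp apart. It did hold overlaps. In chains 1495 of 3661 regions (40.8%) overlapped another region by at least 1 base, against 1520 of 10130 (15.0%) outside chains. Single regions cannot overlap another, so all of the latter lay in pairs. Among paired regions the share was 42.6%, slightly above that of the chains. Overlap therefore separated chained and paired regions from single ones, which follows from the spacing rule. By share of regions it did not set chains above pairs, but this depends on the unit counted. An overlap was held by 600 of 981 chains, which have more regions each, and by 760 of 1784 pairs. Among neighbours within chains 31.0% overlapped, against 42.6% within pairs.

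Joining overlapping regions turned the 3661 members into 2829 separate stretches. Of the 981 chains, 88 (8.97%) were a single stretch in which every region overlapped its neighbour, 282 (28.7%) held 2 stretches, and 611 (62.3%) held 3 or more. No region overlapped another in 381 chains (38.8%). The chains of a single stretch spanned 716 to 1465 bp (median 900 bp) and held 275 regions. Those of 2 stretches spanned 1143 to 10783 bp (median 4168 bp) and held 892 regions. Those of 3 or more stretches spanned 1871 to 45129 bp (median 10455 bp) and held 2494 regions. Chains of 1 or 2 stretches therefore reached the required 3 regions only through overlapping entries. When overlapping regions were merged before chaining, 2170 of 12199 merged regions (17.8%) fell in 609 chains.

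**Figure D1:**
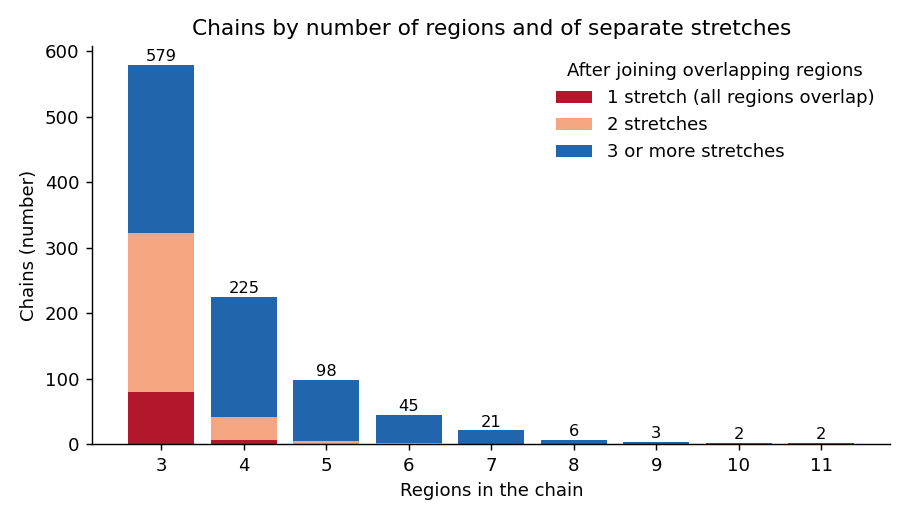
Number of chains (vertical axis) by the number of regions they hold (horizontal axis), with the total above each bar; colours split each bar by the number of separate stretches left after overlapping regions are joined. Chains of 3 regions are the most frequent (579), and 80 of them are a single stretch of overlapping regions.

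Most chains were short. Chains of 3 regions numbered 579 (59.0% of chains) and held 1737 members. Another 225 had 4 regions, 98 had 5, 45 had 6, 21 had 7, 6 had 8, 3 had 9, 2 had 10 and 2 had 11. The 177 chains of 5 or more (18.0%) held 1024 members. Span, from the start of the first region to the end of the last, had a median of 7144 bp over all chains, with quartiles at 3535 and 11556 bp. It grew with the number of regions, which the rule itself brings about, from a median of 5042 bp for 3 regions to 18677 bp for 7. Within 1 size it varied widely: chains of 3 regions spanned 716 to 19545 bp and chains of 5 spanned 1261 to 29888 bp. Together the chains spanned 8245 kb, and their regions covered 1599 kb of it (19.4%).

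Steps between neighbouring midpoints were split at the region width, below which regions overlap. Their counts showed no gap at that width. Of 2680 steps inside chains, 832 (31.0%) were under the region width of 500 bp, with a median of 193 bp. The other 1848 had a median of 3474 bp, with quartiles at 1638 and 6247 bp. The 1784 steps inside pairs, split in the same way, had 760 (42.6%) overlapping at a median of 192 bp and 1024 apart at a median of 3723 bp. Over the whole list, 1155 of the 1592 overlapping steps (72.6%) were under 250 bp and 437 were from 250 bp up, and a further 182 steps lay from 500 bp to under 750 bp. Steps under 250 bp are shorter than the longest sheared fragments (400 bp), and so are some steps from 250 bp up. Whether fragment length bears on the close entries was not tested. Beyond 500 bp, steps in chains thinned out, from 121 between 500 and 750 bp to 28 between 9750 and 10000 bp. In ranges of unequal width, 573 lay under 2000 bp, 615 between 2000 and 5000 bp, and 660 above that.

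**Figure D2:**
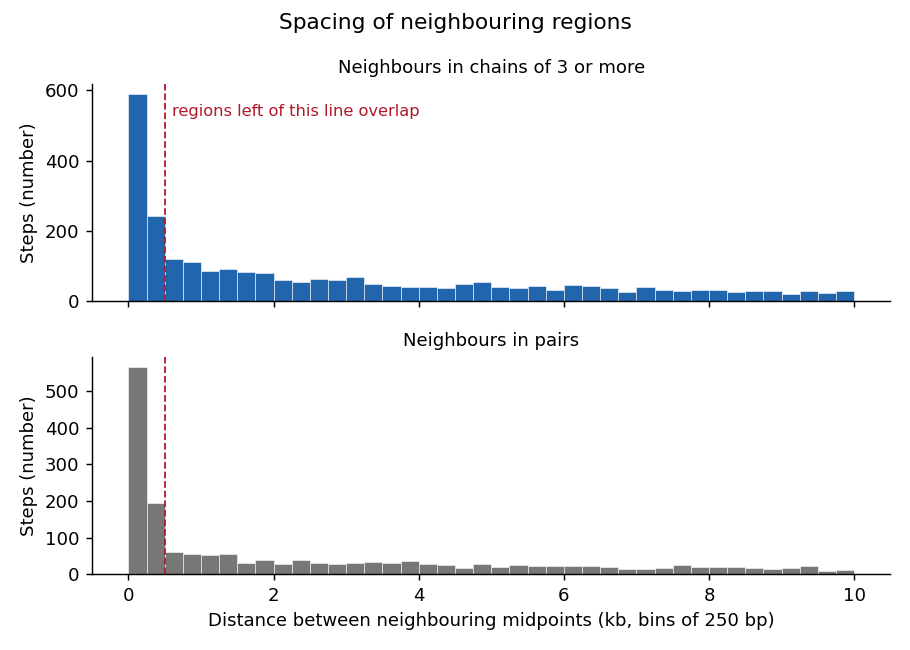
Number of steps (vertical axis) by distance between neighbouring midpoints in kb (horizontal axis, bins of 250 bp), for chains of 3 or more (top) and pairs (bottom); the dashed line marks the region width. Both panels peak in the first bin, with 590 steps in chains, and have a long tail up to the limit of the rule.

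The limit of 10 kb fell in no gap of the distribution. The largest steps inside it were 9998, 9999 and 9999 bp, and the smallest outside it were 10003, 10009 and 10013 bp. Between 9 and 10 kb there were 163 steps, and between 10 and 11 kb there were 166.

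The 10 chains with the most regions lay on 8 chromosomes. Chain 1, at chr6:39365618-39400922, held 11 regions in 8 stretches over 35305 bp. Its midpoints lay at 0, 162, 5189, 10999, 14954, 18039, 24519, 30119, 30259, 30458 and 34805 bp from the first. It thus has 6 lone regions, 3085 to 6480 bp from their neighbours, with a double entry at its left end and a triple entry near its right end. Chain 2, at chr16:22397597-22442725, also held 11 regions, in 9 stretches, and had the longest span of all chains at 45129 bp. Its steps ran from 108 to 9644 bp.

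Chain 3, at chr7:3193082-3217887, held 10 regions in 7 stretches over 24806 bp, starting with 3 overlapping regions within 643 bp between midpoints. Chain 4, at chr15:79265256-79295350, also held 10 in 7 stretches and also opened with 3 overlapping regions, over 377 bp. In both, the next large gap (7398 bp in chain 3, 8981 bp in chain 4) was followed by further separate regions. Chains 5, 6 and 7 held 9 regions each, at chr9:99315207-99335689, chr15:25670042-25700033 and chr4:132648561-132678580. Chains 5 and 7 had 8 stretches each, so they come closest among these to chains of lone regions, and only 2 regions in each overlapped.

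Chains 8, 9 and 10 held 8 regions each and were taken from 6 chains of that size as those with the shortest spans. Chain 8, at chr4:134280631-134290677, had the shortest span of these, with 8 regions in 4 stretches over 10047 bp. Its median step of 484 bp was above the 321 bp of chain 10. The first 4 regions of chain 8 overlapped in a row, with midpoints at 0, 209, 373 and 857 bp. Chain 9 lay at chr12:88212947-88229505, with 6 stretches. Chain 10, at chr17:29613047-29634235, had 7 of 8 regions overlapping another, the highest number in any chain. Its midpoints formed 3 groups and 1 lone region: 0, 321 and 494 bp, then 8908 and 9092 bp, then 18248 and 18420 bp, and last 20689 bp.

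**Figure D3:**
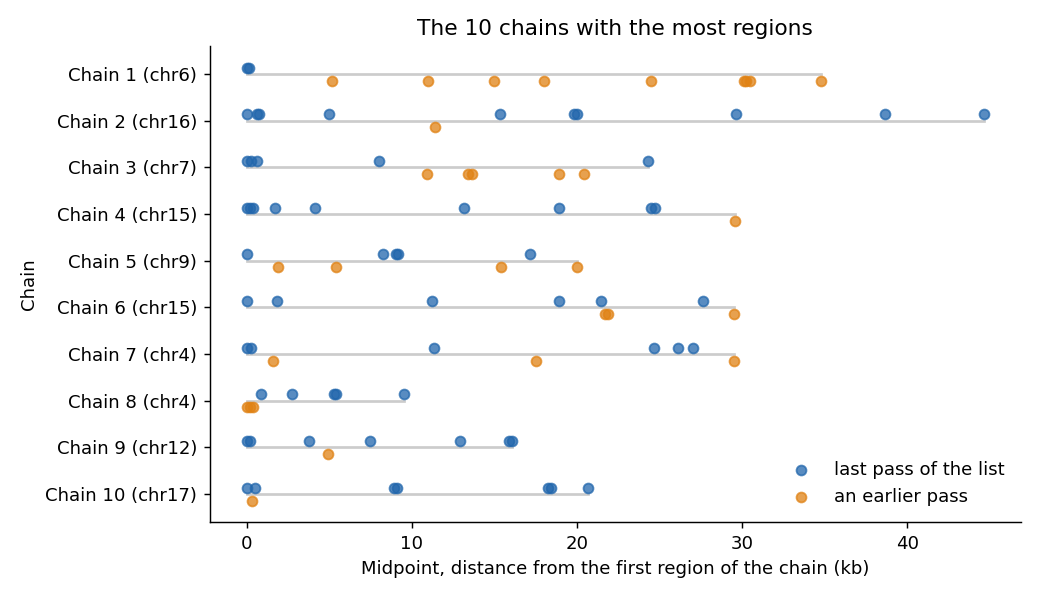
Midpoints of the regions in the 10 chains with the most regions (rows, with their chromosome), as distance in kb from the first region of each chain (horizontal axis); the points are moved up or down by the pass of the list they come from, a property described below. Chain 2 is the longest at 45129 bp and chain 8 the shortest at 10047 bp, and 9 of the 11 regions of chain 1 come from earlier passes.

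At the other extreme were chains that are a single stretch of overlapping regions. The shortest chain, at chr2:25041290-25042005, held 3 regions within 716 bp, with steps of 106 and 110 bp. The shortest chain of 5 regions, at chr11:100534172-100535432, spanned 1261 bp, with steps of 102, 135, 239 and 285 bp. The longest run of overlapping regions in the list was a chain of 6 at chr15:41489845-41491286, which spanned 1442 bp with midpoints at 0, 142, 356, 719, 833 and 942 bp. These 3 chains are each a single stretch, so their number of regions says nothing about separate positions.

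Surroundings at a larger scale were described from the same midpoints that the rule used. For each region the other regions were counted whose midpoints lay from 50 to 200 kb away, a range that leaves out its own chain. The median was 4 for chained regions (quartiles 2 and 8), 3 for paired regions (1 and 7) and 3 for single regions (1 and 5). No region lay in that range for 358 of 3661 chained regions (9.78%), 577 of 3568 paired (16.2%) and 1336 of 6562 single regions (20.4%). In chains of 5 or more the median was 5 and the share without any was 7.42%. Chromosome by chromosome, the median of chained regions was above that of single regions on 19 of 20 chromosomes. Against paired regions it was above on 12 and equal on 7. The quartiles of the groups overlap widely, and neighbouring regions are counted for each other, so the difference is one of degree. Overlapping regions were counted separately. Regions in denser stretches chain more often by the rule itself, so the difference is no independent finding.

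Most chains lay far from other chains, and some formed groups. The nearest other chain on the chromosome was a median of 294 kb away, with quartiles at 79.1 and 935 kb. Another chain lay within 50 kb for 196 of the 981 chains (19.98%). These 196 formed 90 groups, 74 of 2 chains and 16 of 3. The group with the most regions, at chr12:88157474-88229505, held 17 members in 3 chains over 72.0 kb and includes chain 9. The next, at chr17:29536122-29634235, held 16 members in 3 chains over 98.1 kb and includes chain 10. The third, at chr13:44764911-44847544, held 15 members in 3 chains over 82.6 kb, on the chromosome with the lowest share of chained regions. The last of these joined into 1 chain when the limit was 20 kb. The chain with the most regions at that limit held 19, in 14 stretches, at chr9:21556160-21671662, over 115503 bp. With a limit of 5 kb the chain with the most regions was chain 8.

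The share of a chromosome's regions that lay in chains ran from 15.2% to 31.2%, with a median of 27.0%. Intervals here are exact (Clopper-Pearson) 95% binomial ones. They cover counting error only and are too narrow, because regions enter chains in threes or more. Chromosome 11 was highest, with 369 of 1181 regions (31.2%, interval 28.6 to 34.0%), and it also had the most regions per Mb, 9.96 between its first and last region. It held 10.1% of all chained regions and 8.56% of all regions. Chromosomes 7 (30.7%), 18 (30.3%), 19 (30.2%) and 6 (29.9%) followed, with intervals that overlap that of chromosome 11. Chromosome 13 was lowest, with 75 of 495 regions (15.2%, interval 12.1 to 18.6%), and held 2.05% of chained against 3.59% of all regions. Chromosome X came next at 21.7% (interval 17.3 to 26.6%).

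The order of chromosomes followed region density in part. Across 20 chromosomes the share in chains and the regions per Mb had a Pearson r of 0.58 and a Spearman rho of 0.58. Both numbers come from the same regions, and closer regions chain more often by the rule itself. Chromosome X was the least dense, at 2.00 regions per Mb. Chromosome 13, at 4.30 regions per Mb, lay below chromosomes 12 (3.92 per Mb, 24.0% in chains) and 3 (3.52 per Mb, 22.7%), which are less dense. Chromosome 6 lay above its neighbours in density, with 29.9% at 4.57 regions per Mb. The share of chained regions that overlapped another ran from 31.7% on chromosome 3 to 49.2% on chromosome 19. These are the extremes of 20 chromosomes, with 123 and 122 chained regions, and the difference was not tested.

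**Figure D4:**
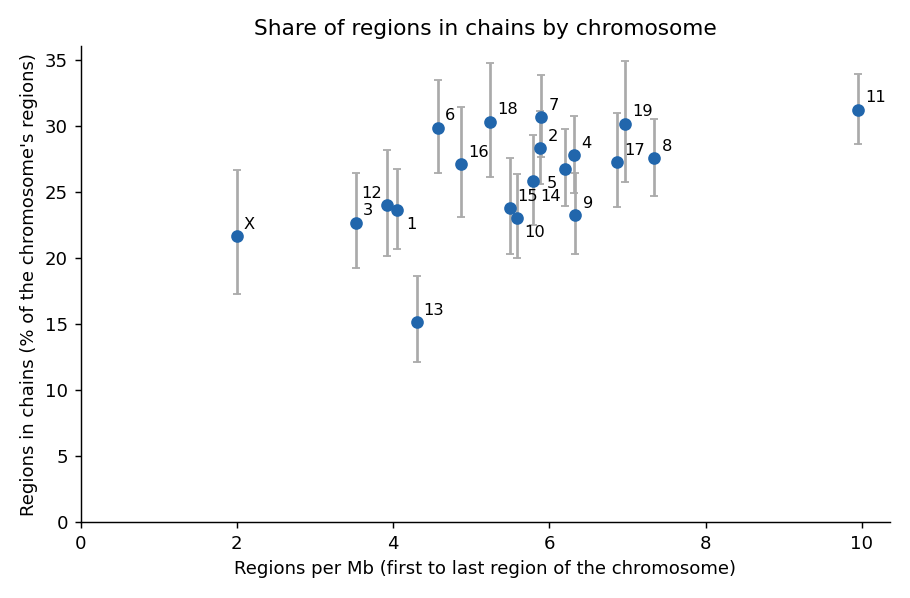
Share of each chromosome's regions that lie in chains of 3 or more (vertical axis, percent) against its regions per Mb (horizontal axis); points are chromosomes and bars are exact 95% binomial intervals. Chromosome 11 is highest at 31.2% and chromosome 13 lowest at 15.2%.

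The order of rows in the list carries a property that the rule did not use. Rows are not sorted by position, and the list runs through the chromosomes, in alphabetical order, 11 times. Within a pass the rows of a chromosome are not all in order of position either. Of 832 overlapping neighbours in chains, 704 shared a pass, but only 421 were adjacent rows. What these passes stand for is not given, and no receptor or time is read from them here. The first 10 passes held 3179 regions in all (20 to 558 each) and the last held 10612. Of the regions of the first 10 passes 28.9% (interval 27.4 to 30.6%) lay in chains, against 25.8% (25.0 to 26.7%) of the last pass. As for the chromosomes, these intervals cover counting error only and are too narrow, because the regions of a chain are not independent. The difference was not tested. Pass by pass the share was highest in passes 6 (31.9%), 4 (31.9%), 3 (31.5%) and 2 (31.0%). It was 27.0% in pass 1, 27.7% in pass 5, 21.0% in pass 7 and 25.7% in pass 8. In the small passes 9 and 10 it was 15 of 69 and 2 of 20 regions.

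Some chains held regions of the last pass and of earlier ones, and others did not. Only regions of the last pass made up 437 chains (44.5%), only regions of earlier passes made up 37 (3.77%), and 507 (51.7%) held both. Earlier passes held 23.1% of all regions, so the makeup of the list alone gives chains of each kind. Whether chains mix the passes more or less than that makeup gives was not tested. Regions of earlier passes were 25.1% of chained, 22.7% of paired and 22.1% of single regions. By chain length their share was 23.4% in chains of 3, 28.1% in chains of 4, 26.3% in chains of 5 and 24.5% in longer ones, with no steady order. Chain 1 had the most, 9 of its 11 regions, from passes 1 to 5, while its 2 regions of the last pass overlap each other at its left end. Chain 3 had 5 of 10, which stood together in its middle and right part. Chains 2, 4, 9 and 10 had 1 each.

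Neighbours that overlapped came from the same pass more often than neighbours that did not. In chains 704 of 832 overlapping steps (84.6%) joined regions of the same pass, against 1047 of 1848 steps between separate regions (56.7%). Pairs gave 84.5% and 58.7%, and neighbours over 10 kb apart gave 61.0%. Since the last pass holds most regions, its size raises all of these shares. Among steps in chains with both regions in earlier passes, the same pass held 69 of 103 overlapping steps (67.0%) and 47 of 188 separate ones (25.0%). In pairs these were 59 of 83 (71.1%) and 14 of 114 (12.3%), and for neighbours over 10 kb apart 62 of 514 (12.1%). Separate neighbours from earlier passes thus shared their pass more often in chains than in pairs, although the steps of 1 chain are not independent and no test was made.

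**Figure D5:**
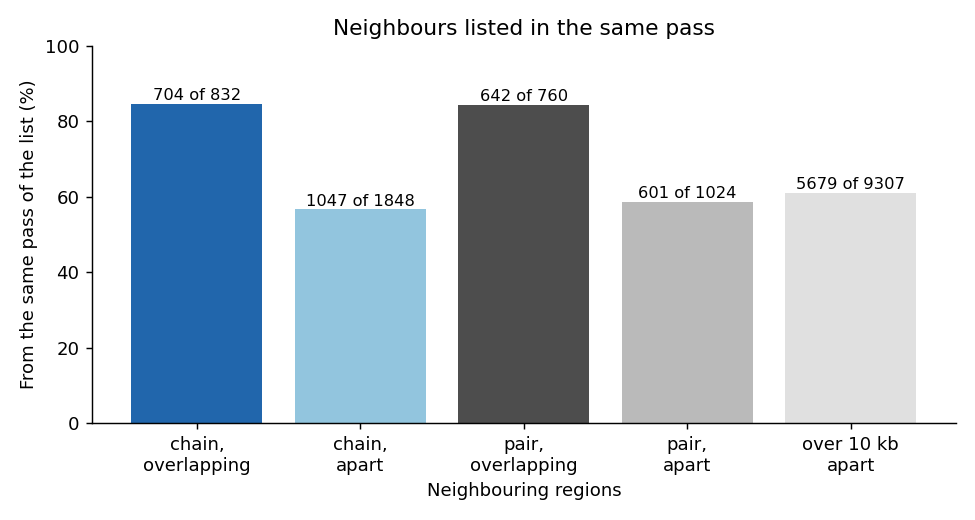
Share of neighbouring regions that come from the same pass of the list (vertical axis, percent), for overlapping and separate neighbours in chains and in pairs and for neighbours over 10 kb apart; numbers above the bars are steps. Overlapping neighbours stand at 84.6% in chains and 84.5% in pairs, and the other classes between 56.7% and 61.0%.

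The mRNA libraries give receptor transcript levels at 3 of the times of ChIP, as no mRNA library was made at 2 h. Protein was not measured. Levels are counts scaled to the gene total of each library (CPM) and are not compared between genes, since no gene lengths were used. They are given as levels only, with no test. Rarg (ENSMUSG00000001288) stood at 612, 521, 659 and 520 CPM at 0 h, 492 and 361 CPM after 24 h of RA and 192 and 116 CPM after 48 h, and its DMSO libraries of 24 and 48 h at 559 and 505 CPM. Rara stood at 72.4 to 162 CPM at 0 h, 153 and 96.3 CPM at 24 h, 80.2 and 62.8 CPM at 48 h, and 165 and 146 CPM in DMSO. Rarb, itself a classic retinoid target, was at 0.474 to 1.16 CPM at 0 h, 34.4 and 42.0 CPM at 24 h and 51.3 and 59.4 CPM at 48 h. Its DMSO libraries were at 0.656 CPM (24 h) and 1.76 CPM (48 h).

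Among the RXRs, Rxrb was at 65.4 to 77.3 CPM at 0 h, 103 and 59.7 CPM at 24 h, 54.7 and 58.0 CPM at 48 h, and 80.7 and 78.0 CPM in DMSO. Rxra was at 25.2 to 54.7 CPM at 0 h, 47.8 and 29.6 CPM at 24 h, 52.8 and 42.3 CPM at 48 h, and 48.0 and 42.6 CPM in DMSO. Rxrg was at 6.92 to 23.4 CPM at 0 h, 2.62 and 2.24 CPM at 24 h, 0.997 and 0.365 CPM at 48 h, and 12.7 and 10.3 CPM in DMSO. The number 1 library was above the number 2 library at all 5 times (0 h and RA) for 7 of the 12 genes read: Rara, Rarg, Rxra, Pou5f1, Gata6, Gata4 and Sox17. For Nanog it was above at 1 time. The part of this difference between libraries in the levels was not tested. The pluripotency factors Pou5f1 (1777 to 2264 CPM), Sox2 (443 to 780 CPM) and Nanog (264 to 418 CPM), markers of embryonal carcinoma cells, were present in all 4 libraries at 0 h. The endoderm factors Gata6, Gata4 and Sox17 were at up to 3.39, 14.8 and 0.706 CPM there. At 48 h of RA they stood at 153 and 133, 273 and 200, and 84.7 and 32.9 CPM. The DMSO library of 48 h had them at 3.64, 14.4 and 1.38 CPM. Pou5f1, Sox2 and Nanog were still present at 48 h of RA, at 973 and 430, 274 and 183, and 145 and 134 CPM. In DMSO at 48 h they were at 2603, 876 and 266 CPM.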

How the data were processed

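Per the submitters' processing notes, Bowtie 0.12.9 and MACS 1.4.2 were used for ChIP and TopHat2 2.0.7, HTSeq and DESeq for mRNA, on mm9, with no options given. The authors deposited the regions as start and end positions only. How the 8 ChIP libraries were joined and set to 1 width is not stated, nor whether peaks were called per sample. The authors deposited mRNA values as raw counts for 36814 genes per library. Another 5 entries, for reads given to no gene, held 72.5 to 76.8% of each table and were left out. Gene counts per library were 7.08 to 10.9 M, and nothing says that libraries came from separate cultures.

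Starts were converted to 1-based positions. Chaining (Python 3.11.15, pandas 2.3.3, NumPy 2.4.6, SciPy 1.17.1) followed the rule stated at the opening and was checked on simulated regions. TMM factors came from edgeR 4.0.16 in R 4.3.3, and plots from matplotlib 3.10.9. The members, gene lists and rules were chosen with earlier results of these data known. Chains named are the 10 with the most regions (ties by shorter span), those with the longest and shortest span (also among chains of 5 or more), the one with the most overlapping regions, and chromosomes with the highest and lowest share. The longest overlapping run, the groups of chains, the counts at 50 to 200 kb and the passes were chosen after the list was seen. Alternatives were steps of 5 and 20 kb, gaps between region ends, chains of at least 4 or 2, merging of overlaps, an overlap of at least 50%, no chromosome X, and, chosen after seeing the data, the last or the earlier passes alone. Reads of the ChIP and input libraries were not analysed here.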

Additional observations from a re-analysis of the deposited data

Results flagged for a closer look

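In 2 of 12 genes looked at, 1 of the 4 mRNA libraries at 0 h lay far from the others relative to their range. Rxrg was at 23.4 CPM in replicate 4, and the next highest library was at 8.90 CPM. Nanog was at 418 CPM in replicate 2, and the next highest was at 279 CPM. Chance sets apart about 1 in 20 such groups.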

How the results depend on the processing

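Counts of chained regions follow the limits that define them. With a step of 5 kb, 2326 regions were chained, the median span was 3750 bp and chromosome 6 had the highest share (20.9%). With 20 kb these were 5513 regions, 15640 bp and chromosome 11 (50.5%), and the largest number of regions in a chain was 19. Chains of at least 4 gave 1924 regions in 402 chains, a median span of 11400.5 bp, 771 overlapping regions and chromosome 5 as highest (18.0%). Chains of at least 2 gave 7229, 2765, 3260 bp, 3015 and chromosome 11 (59.4%). With overlaps merged, 2170 merged regions formed 609 chains with a median span of 10404 bp, 0 overlapping, and chromosome 11 was highest (21.3%). In the last pass alone 2086 regions formed 590 chains (median span 6124 bp, 994 overlapping, chromosome 19 highest at 29.0%), and in the earlier passes alone 274 formed 82 (6154.5 bp, 108 overlapping, chromosome 6 at 15.6%). These alternatives change the number of regions or the limit by construction. Chromosome 11 was thus not the highest under 4 of the settings. Gaps between region ends and leaving out chromosome X kept each of these results within 1.5 times its value or within its 95% interval, and so did an overlap of at least 50% for overlapping regions (1098). Leaving out the narrowest regions was not possible, since all have 1 width, and genes and sequences near chains were not run, since no mm9 reference was used. TMM scaling moved 3 group means of mRNA levels by more than their SD. Leaving out 1 library moved 7 of 96 means by over 1.5 times. Without replicate 1 of 48 h, Rxrg went from 0.681 to 0.365, Pou5f1 from 701 to 430 and Sox17 from 58.8 to 32.9 CPM. At 24 h, Gata4 went from 91.9 to 43.0 CPM without replicate 1 and to 141 CPM without replicate 2, and Sox17 from 3.89 to 1.12 and to 6.66 CPM. No paired analysis was possible for the regions, because the regions carry no replicate. The mRNA libraries do carry replicate numbers, but a paired analysis by these numbers was not run. For mRNA only levels are given, with no test between times. With no read counts per region, the depth behind each region is unknown.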
